A study of Mus musculus with 60 samples.

Results

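To ask where a mutant histone lies relative to a repressive mark, H3K27me3 and HA-tagged H3R2C were mapped in the same cells by CUT&RUN, an assay in which a nuclease tethered by an antibody cuts out the bound DNA for sequencing. The cells were C3H 10T1/2, a line of mouse mesenchymal progenitors, and they expressed the human H3.1 gene H3C2 with arginine 2 changed to cysteine. The transgene carried HA and FLAG tags at its C-terminus, was delivered by a lentiviral vector with an EF1 promoter and a puromycin marker, and was added to the endogenous H3 genes, so that most H3 in these cells was not tagged. Of the 60 samples of the series, 6 belong to this comparison, 3 labelled replicates with anti-H3K27me3 and 3 with anti-HA. The H3WT, H3R8C and H3R26C cells to which they are compared at the end carried the same vector and tags and differ in the residue changed. For both antibodies, the peak lists of replicates 1 and 2 were identical in every value and were counted once, which left 2 independent libraries per antibody. IgG libraries were not analysed here, so the signal of the anti-HA antibody is given without that control.

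H3K27me3 is written by Polycomb repressive complex 2 (PRC2), which methylates lysine 27 in the tail of H3 and is known for keeping lineage genes silent in cells that do not use them. The mark forms broad domains over developmental genes such as the Hox clusters and narrower islands at CpG-rich start sites. H3.1 is a replication-coupled histone that is deposited behind the replication fork, and arginine 2 lies near lysine 4, a residue whose methylation marks active start sites.

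The anti-H3K27me3 lists held 23144 peaks in replicates 1 and 2 and 23168 in replicate 3. They covered 130.4 and 77.0 Mb, with a median width of 3.75 and 2.25 kb. The anti-HA lists held 51113 and 50990 peaks, covered 42.9 and 84.4 Mb, and had a median width of 0.8 and 1.45 kb. A region was formed where peaks of one antibody overlapped or touched, and was kept where both independent lists had a peak in it. This gave 14139 H3K27me3 regions of 25604 (55.2%), with a median length of 5.55 kb. It gave 13412 HA regions of 85608 (15.7%), with a median length of 1.85 kb. The bases shared by a pair of lists, divided by the bases of either (Jaccard index), came to 0.48 for H3K27me3 and 0.11 for HA. Between an H3K27me3 and an HA list this index was 0.029 to 0.057. The 2 HA lists thus shared few of their bases, although more than the 0.024 to 0.032 found after one of them was moved by 1, 2 or 5 Mb.

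The sequences printed next are examples of start sites from each class, named by rank, and do not stand for the class as a whole. They are promoters from RefSeq (GRCm38.p6, the same assembly as mm10), 300 bases around a start site each, written 5′ to 3′ on the strand given, with each CG pair in capitals. Of the start sites with H3K27me3 in both lists and HA in neither, Wnt3a (a Wnt ligand) and Nkx2-3 (a homeobox factor) are shown. Both lists of the mark covered 100% of each stretch.
Wnt3a, chr11:59290702-59291001, minus strand: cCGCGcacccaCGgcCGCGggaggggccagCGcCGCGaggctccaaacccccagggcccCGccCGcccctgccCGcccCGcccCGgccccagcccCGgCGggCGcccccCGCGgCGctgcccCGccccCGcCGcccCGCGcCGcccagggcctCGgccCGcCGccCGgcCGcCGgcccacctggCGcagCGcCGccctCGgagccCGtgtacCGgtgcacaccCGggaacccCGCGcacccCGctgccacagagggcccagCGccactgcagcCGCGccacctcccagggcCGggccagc
Nkx2-3, chr19:43612075-43612374, plus strand: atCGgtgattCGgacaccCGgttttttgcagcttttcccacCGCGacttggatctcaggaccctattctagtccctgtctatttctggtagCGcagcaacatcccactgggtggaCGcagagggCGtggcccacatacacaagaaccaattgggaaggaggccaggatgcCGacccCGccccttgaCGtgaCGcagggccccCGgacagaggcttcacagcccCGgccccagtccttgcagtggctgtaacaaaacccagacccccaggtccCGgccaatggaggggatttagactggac
Krt78 (a keratin) and Trpm8 (a cold-sensing ion channel) had both. All 4 lists covered the Krt78 stretch in full, and at Trpm8 the HA list of replicates 1 and 2 reached over 5.33% of it, against 100% for replicate 3.
Krt78, chr15:101954238-101954537, minus strand: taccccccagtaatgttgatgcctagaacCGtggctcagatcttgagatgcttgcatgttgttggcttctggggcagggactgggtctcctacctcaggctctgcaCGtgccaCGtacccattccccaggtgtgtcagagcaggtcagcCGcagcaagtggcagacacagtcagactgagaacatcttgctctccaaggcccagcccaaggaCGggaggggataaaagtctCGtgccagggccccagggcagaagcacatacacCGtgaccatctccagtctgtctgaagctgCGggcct
Trpm8, chr1:88306485-88306784, plus strand: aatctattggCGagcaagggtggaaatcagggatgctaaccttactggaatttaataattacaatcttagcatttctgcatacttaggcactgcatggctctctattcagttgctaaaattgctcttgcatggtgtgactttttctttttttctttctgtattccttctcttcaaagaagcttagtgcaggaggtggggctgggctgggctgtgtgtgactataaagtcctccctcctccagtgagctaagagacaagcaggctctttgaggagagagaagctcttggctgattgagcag
Cebpa (a transcription factor of fat cells) and Asf1b (a chaperone that hands H3 and H4 to chromatin assembly) had HA alone. HA peaks covered 86.0% of the Cebpa stretch in both libraries, and 69.0% and 100% of the Asf1b stretch.
Cebpa, chr7:35119043-35119342, plus strand: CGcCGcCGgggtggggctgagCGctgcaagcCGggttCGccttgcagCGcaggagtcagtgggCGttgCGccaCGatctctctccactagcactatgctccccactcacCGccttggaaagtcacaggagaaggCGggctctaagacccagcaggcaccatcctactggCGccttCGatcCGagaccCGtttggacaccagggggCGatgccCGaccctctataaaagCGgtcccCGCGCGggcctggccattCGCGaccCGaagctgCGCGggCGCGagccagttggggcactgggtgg
Asf1b, chr8:83955444-83955743, plus strand: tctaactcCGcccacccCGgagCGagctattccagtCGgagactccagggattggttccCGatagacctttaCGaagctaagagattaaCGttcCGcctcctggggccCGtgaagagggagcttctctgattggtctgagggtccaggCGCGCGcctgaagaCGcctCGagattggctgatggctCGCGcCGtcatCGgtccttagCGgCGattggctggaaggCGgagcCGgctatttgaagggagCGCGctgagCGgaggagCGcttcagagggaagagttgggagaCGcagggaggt
The Wnt3a stretch held 45 CG pairs, Nkx2-3 15, Krt78 8, Trpm8 1, Cebpa 29 and Asf1b 27.

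HA peaks were found at H3K27me3 regions more often than at the same regions moved along their chromosomes, but most of the mark was free of called HA. Of the 14139 H3K27me3 regions, 1309 (9.26%) overlapped an HA region. The moved regions gave 5.02 to 7.74% over 6 offsets of 1, 2 and 5 Mb in either direction. Seen from the tag, 1699 of the 13412 HA regions (12.7%) overlapped an H3K27me3 region, against 6.70 to 11.1% for moved HA regions. Each HA library showed this by itself. Replicates 1 and 2 reached 22.8% of the H3K27me3 regions, against 14.3 to 17.4% when moved, and replicate 3 reached 27.5%, against 15.1 to 20.98%. In bases, 3.802% of the mark lay under HA regions, against 1.59 to 2.73% when moved. By number of HA lists with a peak, 8953 H3K27me3 regions (63.3%) had none, 3253 had 1 and 1933 had both. Resting on H3K27me3 replicate 3 alone, the share of H3K27me3 regions with an HA region was 6.68%. Regions are not replicates, and no p is given for these overlaps. A measured difference stands beside them: repeats soft-masked in the genome made up 21.99% of the bases of H3K27me3 regions with HA and 23.7% of those without, but 30.9 to 33.7% of the moved ones. The part of repeat content in the excess was not tested.

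The excess was local. With the H3K27me3 regions in place, 4.06% of their bases lay under HA peaks of replicates 1 and 2 and 9.64% under those of replicate 3. A move of 2 kb gave 3.62 and 8.61%, and a move of 10 kb 3.14 and 7.57%. At 100 kb the values were 2.56 and 6.14%, and at 1000 kb 2.78 and 6.48%. Most of the drop thus came within 50 kb in both libraries. Values between 100 and 1000 kb differed little, and at 5000 kb they were lower again, at 2.10 and 4.37%.

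**Figure D1:**
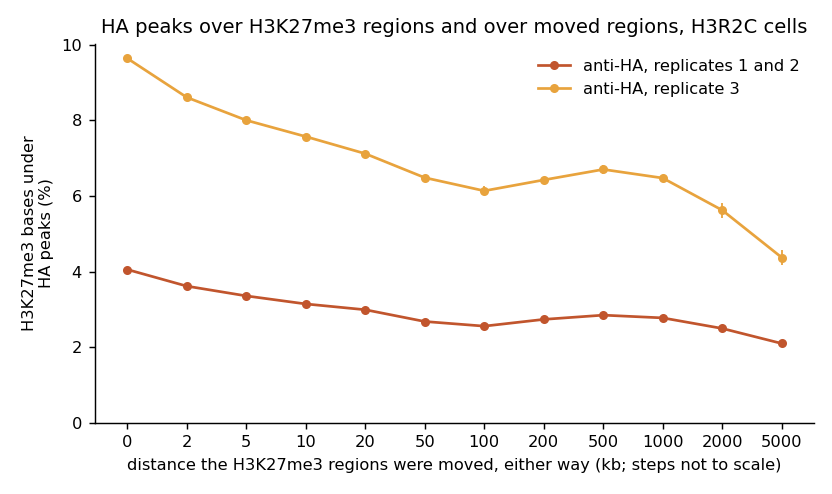
Percentage of the bases of H3K27me3 regions that lay under HA peaks (vertical axis) with the regions in place and moved by 2 to 5000 kb (horizontal axis, steps not to scale). Points are the mean of the moves in both directions and bars their range, with 1 line for each independent anti-HA library, and both lines start highest at 0 kb (4.06 and 9.64%).

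Long H3K27me3 regions held HA more often, as did moved regions of the same length. Among the shortest 2923 regions (median 2.65 kb), 7.22% of the regions overlapped an HA region, against a mean of 3.797% when moved. Among the longest 2806 (median 14.6 kb) the values were 17.2 and 12.4%. The ratio of the share in place to the moved share was 1.70 and 1.58 for the 2 HA libraries for the shortest, and 1.42 and 1.47 for the longest. With the regions divided by length into 5 classes of about equal size, this ratio lay between 1.35 and 1.70 in each class.

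By annotation, H3K27me3 regions with HA lay at start sites more often than those without. Of the 1309 regions with a shared HA region, 488 (37.3%) came within 1 kb of a transcription start site, against 22.6 to 31.6% of the same regions when moved. Of the 8953 without HA in either list, 1767 (19.7%) did so, against 14.6 to 17.7% when moved. The median length was 7.7 kb with HA and 4.8 kb without. Regions outside genes made up 26.6% with HA and 43.2% without. At start site regions the HA libraries exceeded the moved level 1.52-fold and 1.59-fold, at exons 1.44-fold and 1.60-fold, in introns 1.45-fold and 1.44-fold and between genes 1.38-fold for both. HA regions without the mark also lay at start sites, 2259 of 11352 (19.9%), against 9.33 to 12.4% when moved. Of the HA regions that overlapped the mark, 297 of 1699 (17.5%) did so, against 10.5 to 16.5%. Median GC content was 46.9% in H3K27me3 regions with HA, 43.0% in those without, and 41.3 to 43.1% in moved regions.

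The tag was spread over the chromosomes more unevenly than the mark. Chromosome 15 held 2706 of the 13412 HA regions (20.2%), beside 6.36% of the H3K27me3 regions and 3.57% of the coding genes. Chromosomes 8, 10, 11, 15 and 17, named after their values were seen, held 62.4% of the HA regions, 29.4% of the H3K27me3 regions and 926 of the 1309 overlaps (70.7%). On chromosome 15, 33.3% of the H3K27me3 regions overlapped an HA region, on chromosome 13 0.81% and on chromosome X 1.31%. For regions shared by both HA lists, the share in place was above the moved share on 19 of 20 chromosomes. Chromosome 13 (0.81% in place, 0.85% moved) was the exception, and chromosome 19 differed little (6.41 and 6.38%). For all peaks of a single HA library, the share in place was above the moved share on 20 of 20 chromosomes in both libraries. Its ratio ran from 1.23 to 2.45 in replicates 1 and 2 (median 1.52) and from 1.25 to 3.21 in replicate 3 (median 1.56). Chromosome 15, where HA was densest, had the lowest ratio in each. HA peaks of the other genotypes were less concentrated there, at 7.86 to 10.9% of a library, compared with 15.0 and 16.0% in H3R2C cells. Their shares were also lower on chromosomes 8, 10 and 17. On chromosome 11 they held 8.69 to 14.5% of a library, against 8.88 and 9.78% in H3R2C cells.

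**Figure D2:**
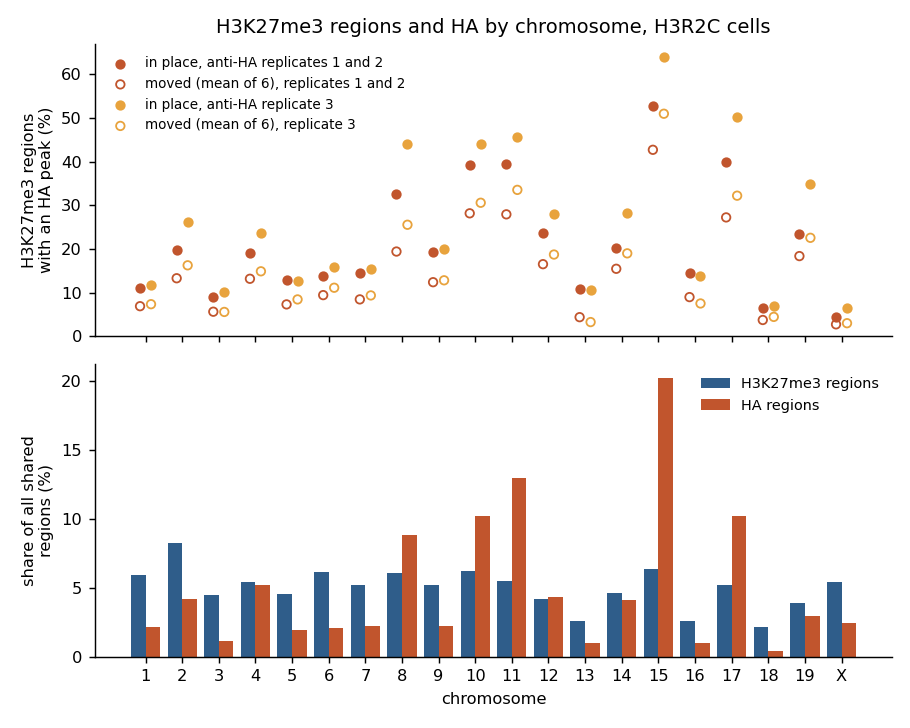
Top, percentage of H3K27me3 regions with an HA peak on each chromosome, filled points in place and open points the mean of 6 moves, for both independent anti-HA libraries. Bottom, percentage of all H3K27me3 regions (blue) and all HA regions (orange) on each chromosome. Filled points lie above open points of the same library on each chromosome, and chromosome 15 holds 20.2% of the HA regions.

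The strongest HA signal lay in a few sites. In all, 8 sites were among the 10 highest peaks of both HA lists, on chromosomes 2, 6, 9, 12, 14 and X. Together they held 66.1 and 58.4% of the total HA signal in the lists of replicates 1 and 2 and of replicate 3, but 2.31 and 4.02% of the H3K27me3 signal. All of them also had a peak in both H3K27me3 lists. The highest, at chr2:98664801-98667650, held 33.998 and 29.5% of the HA signal. The 240 bases at the centre of its longest stretch under all 4 lists are printed next, as an example from the site with the most HA signal. Where in the site the signal was highest was not examined. Their repeating units are those of the mouse major satellite, a repeat of pericentromeric heterochromatin, and they contained 7 CG pairs, in capitals.
highest HA site, chr2:98666656-98666895, plus strand: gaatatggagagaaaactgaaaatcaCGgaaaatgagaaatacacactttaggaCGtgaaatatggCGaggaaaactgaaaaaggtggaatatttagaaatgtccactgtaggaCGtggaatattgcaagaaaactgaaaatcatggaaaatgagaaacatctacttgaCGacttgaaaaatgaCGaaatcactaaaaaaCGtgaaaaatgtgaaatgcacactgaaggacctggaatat
The other sites were not annotated as repeats or otherwise here. Reads from the many copies of such a repeat cannot be told apart, and how they were placed was not given in the sources used here.

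At the start sites of coding genes the mark and the tag fell mostly on different genes, at about the rate that each had over all genes. A gene counted as having a mark where both independent lists had a peak within 1 kb of one of its start sites, and as lacking it where neither had. Of 21851 coding genes, 1677 (7.67%) had H3K27me3 and 1856 (8.49%) had HA. Both were present at 159 genes (0.728%), only H3K27me3 at 1126 (5.15%), only HA at 1653 (7.56%) and neither at 13957. A further 4956 had a peak in 1 of the 2 lists of an antibody and were left undecided. HA was present at 159 of the 1677 marked genes (9.48%) and at 1653 of the 19329 genes without the mark in either list (8.55%). By library, HA peaks lay at 15.9 and 26.4% of marked genes and at 13.4 and 23.0% of unmarked genes. Resting on HA replicate 3 alone 443 genes had both and 4438 only HA, and on HA replicates 1 and 2 alone 267 and 2587.

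The shares varied with the chromosome. On chromosomes 8, 10, 11, 15 and 17, HA was present at 107 of 568 marked genes (18.8%) and at 929 of 4739 unmarked genes (19.6%). On the other chromosomes it was present at 52 of 1109 (4.69%) and 724 of 14590 (4.96%). These 5 chromosomes were chosen for their HA, and single chromosomes differed within the groups. On chromosome 9, HA was present at 14.4% of marked and 5.15% of unmarked genes, and on chromosome 19 at 3.70 and 14.5%. Of the 159 genes with both, 47 lay on chromosome 15. The classes also differed in sequence, with a median of 73 CG pairs within 1 kb of the first start site at genes with only HA, 41 with only H3K27me3, 36 with both and 59 over all coding genes.

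Levels at a start site are given as relative coverage, the mean signal of the highest peak there divided by the median peak of the same list, in the order replicates 1 and 2, then replicate 3. The genes with the most H3K27me3 and no HA were regulators of body plan and organ formation. Hoxb13 (a posterior Hox gene) had an H3K27me3 level of 4.46 and 3.06, under peaks of 50 and 51.45 kb. Hoxb3 had 3.79 and 2.96. Pax2 (kidney and eye) had 3.88 and 2.86, under peaks of 39.2 kb in both lists. Lmx1b (limb patterning and dopamine neurons), Wnt3a and Nkx2-3 had 3.07 and 2.99, 3.41 and 2.54, and 2.89 and 2.62, respectively. These 6 genes were chosen for having no HA peak within 1 kb of a start site, and the domains over Hoxb13, Lmx1b and Hoxb3 held HA peaks of both lists further away.

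Genes with both are named by whichever antibody ranked lower there. Sfi1, which codes for a centrosomal protein, had 3.18 and 2.97 for the mark and 10.7 and 13.1 for the tag. AW822073 had 2.12 and 2.01 for the mark and 5.59 and 7.73 for the tag. At both genes the tag lay further above its list's median peak than the mark did. Without the IgG control, and with repeats at these start sites not examined, signal common to both antibodies was not tested as a cause. Apol11b (apolipoprotein L family) had 2.76 and 2.19 for the mark and 1.48 and 1.77 for the tag, and Krt78 1.65 and 1.52 against 1.58 and 2.24. Trpm8 had 1.84 and 1.302 against 1.91 and 1.75, and Sytl3 (vesicle transport) 3.08 and 2.40 against 1.78 and 1.51. Over all 159 genes with both, the median relative coverage was 1.54 and 1.39 for H3K27me3 and 1.10 and 1.16 for HA.

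Genes with only HA included Oasl1 (an interferon-induced gene) at 17.03 and 31.7, Litaf (an endosomal protein) at 11.6 and 3.96, and Sp110 (a nuclear body protein) at 2.71 and 3.37. The HA peaks at Oasl1 were 0.45 and 0.3 kb long, shorter than the median HA peak. Speer4d, Btbd35f9 and Zfp979, members of multicopy families whose reads may be shared between copies, had 3.92 and 4.29, 2.14 and 3.02, and 1.84 and 2.15. H3K27me3 was absent from these 6 genes in both lists. The median over the 1653 genes with only HA was 1.12 and 1.27, with an upper quartile of 1.31 and 1.48, so the named genes lay above most of their class.

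**Figure D3:**
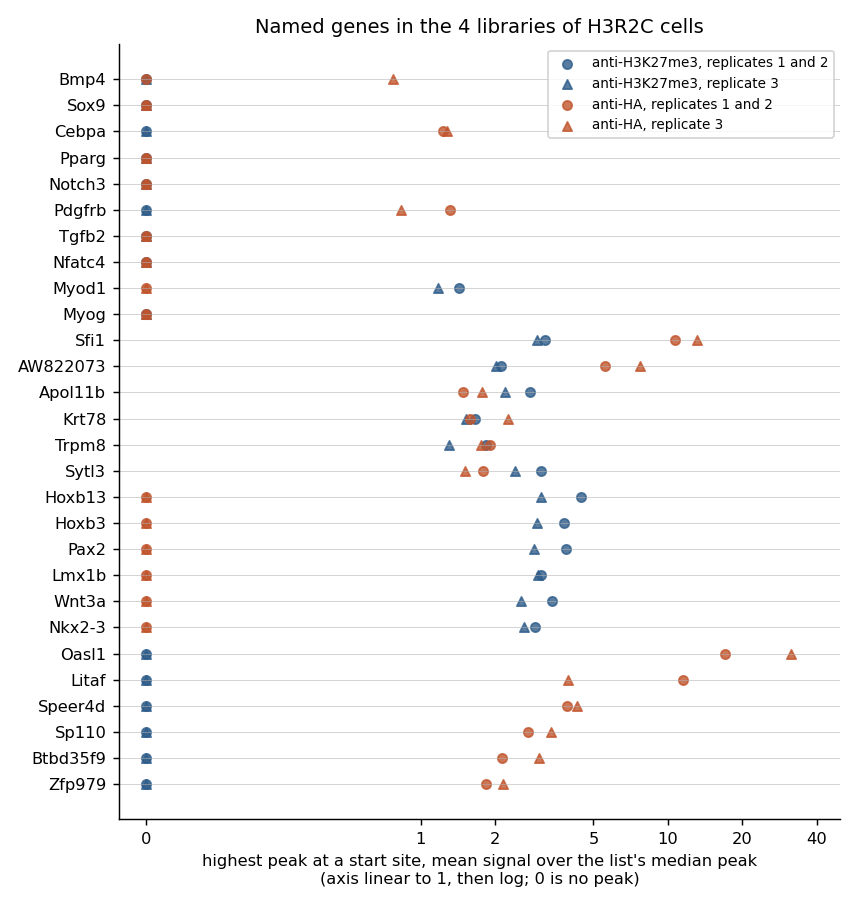
Relative coverage of the highest peak at a start site (horizontal axis, linear to 1 and logarithmic above, 0 is no peak) for the 10 lineage genes of the study and the 6 leading genes of each class. Blue is anti-H3K27me3, orange anti-HA, circles are replicates 1 and 2 and triangles replicate 3. Hoxb13 to Nkx2-3 have blue points alone, Oasl1 to Zfp979 orange points alone, and Sfi1 to Sytl3 both.

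Of the 10 lineage genes named in the study, 1 had the mark and 2 had the tag in both lists. Myod1, the master regulator of skeletal muscle, had H3K27me3 at 1.43 and 1.17 over peaks of 15.6 and 13.4 kb, and no HA. Cebpa had HA at 1.23 and 1.27 and no H3K27me3. Pdgfrb, a receptor tyrosine kinase of mesenchymal cells, had HA at 1.31 and 0.93 and no H3K27me3. Bmp4 had an HA peak in replicate 3 only (0.90). Sox9, Pparg, Notch3, Tgfb2, Nfatc4 and Myog had no peak of either antibody within 1 kb of a start site.

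Read against 7.67% for H3K27me3 and 8.49% for HA over all coding genes, the 5 lists of developmental regulators had the mark at 22.4 to 46.2% of their genes and the tag at 0 to 10.2%. H3K27me3 was present in both lists at 18 of 39 Hox genes (46.2%), and HA at 0 of 39. The 18 included Hoxb6, Hoxc4 and Hoxc6, which had HA in 1 list. Hox genes lie in clusters and share peaks, with 1 H3K27me3 region over Hoxb3 to Hoxb9, so they are not separate observations. No Hoxa gene had the mark in both lists. Of 80 other homeobox genes, 27 (33.8%) had the mark and 5 (6.25%) the tag, with both at Six3 and Lhx1. At Six3 (forebrain and eye) the mark was at 2.40 and 2.89 and HA at 0.79 and 1.04. The HA peaks there were 0.8 and 1.3 kb long and the H3K27me3 peaks 33.3 and 16.8 kb. Six2 (kidney progenitors), with Nkx2-5 and Pax9, had HA alone, at 0.94 and 1.36 for Six2.

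Of 34 bHLH lineage factors, 15 (44.1%) had the mark and 1 (2.94%) had HA. Olig3 (spinal cord neurons) led the former, with H3K27me3 at 2.88 and 2.00, and Mesp1 (early mesoderm) was the latter, with HA at 0.89 and 1.18. Of 49 T-box, forkhead, Gata and Sox genes, 11 (22.4%) had the mark and 5 (10.2%) the tag. Foxn4 (retina) had only the mark (2.27 and 2.07), Tbx18 (heart and ureter) only HA (1.27 and 1.502), and Sox10 (neural crest) had both. At Sox10 the mark stood at 0.90 and 0.99 and HA at 0.87 and 1.20, with all 4 values close to the median peak. Of 64 Wnt, Fgf, Bmp, Gdf and hedgehog ligands, 18 (28.1%) had the mark and 4 (6.25%) the tag. Shh, Ihh, Wnt5a and Wnt3a were among the 14 with only the mark, Wnt1 and Dhh had only HA, and Wnt11 and Wnt7b had both.

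Genes of cartilage, bone, fat and muscle, the fates open to these progenitors, were marked at 9 of 57 (15.8%) and tagged at 3 of 57 (5.26%). Acan, the main cartilage proteoglycan, had H3K27me3 at 1.37 and 1.25. Sp7, a transcription factor of osteoblasts, had both, at 1.01 and 0.90 for the mark and 1.02 and 1.24 for HA. Of 15 mesenchymal progenitor markers, 0 had H3K27me3 in both lists and 4 (26.7%), Eng, Col1a1, Sparc and Pdgfrb, had HA. Eng (endoglin) had HA at 1.21 and 1.28. Of 14 markers of neurons, blood, liver, skin and endothelium, 4 (28.6%) had the mark, and Slc17a7 (a glutamate transporter of neurons) had HA as well, with the mark at 1.16 and 1.07 and HA at 1.05 and 0.87. Ttr, a liver secretory gene, had only the mark, at 1.10 and 1.13. The lists hold no transcripts, and the identity of the cells was taken from the study and not from these start sites.

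Lists tied to the histone itself were small and mostly without either. The list of Polycomb subunit genes also held Kdm6a, Kdm6b and Uty, which are not subunits. Of its 31 genes measured, Epop (a PRC2 accessory subunit) had only the mark (0.90 and 0.86) and Cbx8 (a PRC1 reader of H3K27me3) only HA (1.01 and 1.28). Of 12 H3 chaperone and H3.3 genes, Asf1b (HA at 1.64 and 2.13) and Daxx had only HA. Of 9 arginine methyltransferase genes, Prmt7 had only HA (0.88 and 0.91). None of 12 replication-dependent H3 genes had either in both lists, nor did any of 16 housekeeping genes, of which 15 had no peak in any list. For H3 genes, reads from the human transgene and from near-identical mouse copies can be shared.

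Of 82 cytosolic ribosomal protein genes, 0 had the mark and 2 had HA, among them Rpl7l1 (1.17 and 1.498). Of 28 imprinted genes 6 (21.4%) had the mark and 0 had HA, with Ascl2 (placenta) at 1.37 and 1.14. Of 39 genes for receptor channels of neurons, 7 (17.9%) had the mark, led among those without HA by Grik4 (1.80 and 1.58), and Grin2c alone had both, with the mark at 1.36 and 1.76 and HA at 0.81 and 1.27. The largest families were near or under the rate over all genes. Of 1134 olfactory receptor genes, 68 (5.996%) had the mark and 8 (0.71%) the tag, and of 327 vomeronasal receptor genes 10 (3.06%) and 2 (0.61%). Olfr370 and Vmn1r21 led those with only the mark, at 2.07 and 1.70 and at 1.32 and 1.05. Olfr285 had both (1.304 and 1.33 for the mark, 1.83 and 1.23 for HA), and Olfr56 and Vmn1r2 only HA (1.71 and 1.52, and 2.02 and 1.20). Of 365 zinc finger protein genes (Zfp), 6 (1.64%) had the mark, below the 7.67% over all coding genes, and 39 (10.7%) had HA, near the 8.49% over all. Zfp541 had only the mark, at 1.73 and 1.42.

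**Figure D4:**
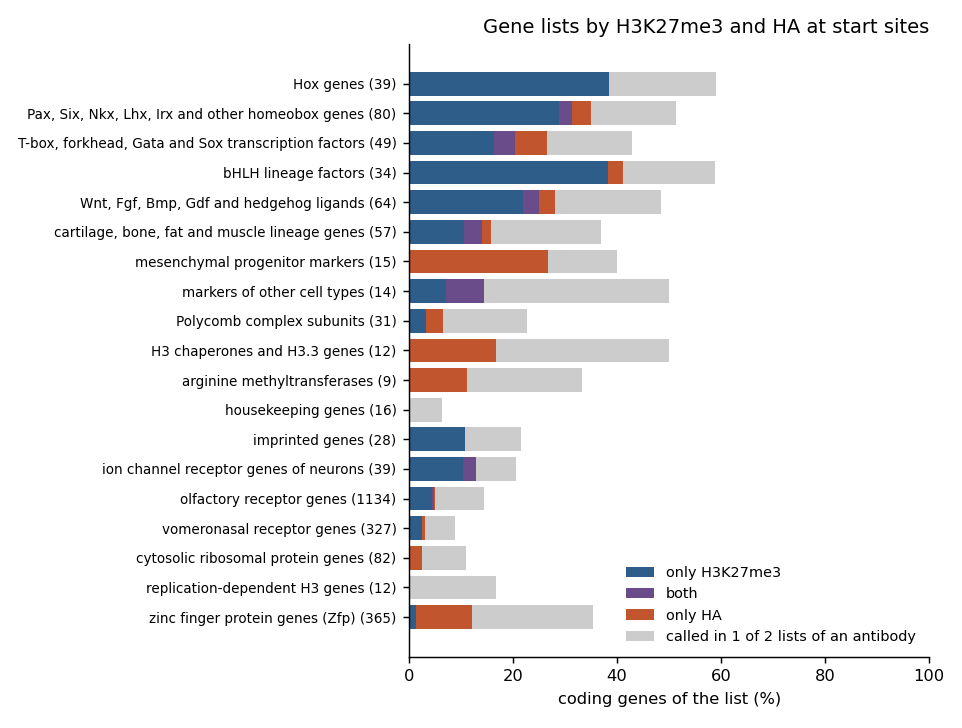
Coding genes of each list (number measured in parentheses) with only H3K27me3 (blue), both (purple), only HA (orange) or a peak in 1 of the 2 lists of an antibody (grey), as a percentage of the list. Blue is widest for Hox genes and bHLH factors, and the mesenchymal progenitor markers show orange and grey alone.

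Over all H3K27me3 regions, HA peaks lay on 4.06 and 9.64% of the bases. In the 3 longest regions with HA in both lists, the share was lower than this in replicates 1 and 2. In replicate 3 it was higher only in the region over Cntn2. The longest with HA in both lists, chr11:96248651-96345300 (mm10), ran for 96.7 kb over Hoxb3 to Hoxb9. The mark covered 99.6 and 98.9% of it and HA 2.64 and 9.26%. In the region over Cntn2 (a neural adhesion protein), chr1:132521751-132605000, HA covered 3.42 and 18.3%, and in the region over Kcnip3 and Prom2, chr2:127488351-127568150, 1.25 and 3.45%. The longest region without HA in either list, chr9:71216401-71319150, measured 102.8 kb and lay 0.61 kb from the nearest start site of Aldh1a2, which makes retinoic acid. It was followed by chr5:30512301-30587700 over Cib4 (75.4 kb) and by chrX:52392451-52452950 (60.5 kb), which held no coding start site and lay 161 kb from Gpc3. Regions of this size thus occurred both with and without HA.

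Where all 4 lists had a peak, the balance of the antibodies could be tested. Peaks of both antibodies were merged, and 1929 merged regions had a peak in each list. Signal was summed over a region, divided by the median of the library over these regions, and compared as log2(scaled signal + 0.25) with limma, so that a value of 0 means the balance of a typical region. At a Benjamini-Hochberg adjusted p below 0.05, limma called 312 regions (16.2%) with more H3K27me3 and 450 (23.3%) with more HA. The former had a median length of 22.4 kb and lay at start sites in 58.7%, the latter 4.65 kb and 29.8%, against 9.65 kb and 38.8% over all regions tested. Signal was summed over regions merged from wide H3K27me3 peaks and narrower HA peaks. Length, and with it the start site share, is therefore tied to the direction called and is not a separate result. The split rests on the scaling. With each library scaled by its total signal, 1671 regions had more H3K27me3 and 40 more HA, and the median log2 difference went from -0.17 to 2.10, so directions are relative to the median region only. Without H3K27me3 replicates 1 and 2 or replicate 3 the counts were 54 and 129 or 46 and 165, and without HA replicates 1 and 2 or replicate 3 they were 523 and 647 or 513 and 699, each with the lone library assumed to vary like the others.

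The regions with the lowest adjusted p on the side of the mark were broad domains at start sites, with the limit on length just given. Kcnip3 and Prom2 (the 79.8 kb region above) had scaled signals of 15.4 and 17.6 for H3K27me3 and 0.77 and 1.05 for HA, a log2 difference of 3.86 ± 0.37 (SE; limma, adjusted p = 2.9e-05, 2 libraries against 2). At Lmx1b (chr2:33601201-33640500) the difference was 3.78 ± 0.36 (limma, adjusted p = 3.0e-05), and at Hoxb13 (chr11:96161101-96212550) 3.86 ± 0.37 (limma, adjusted p = 3.2e-05). On the side of the tag they were short, and none held a coding start site. One of 0.2 kb at chr13:77438901-77439100, 269.6 kb from Fam172a, had scaled signals of 0.41 and 0.72 for H3K27me3 and 159 and 105 for HA, a log2 difference of -7.34 ± 0.41 (limma, adjusted p = 1.9e-06). The other two, at chr4:70377701-70378750 and chr4:64497601-64498200, had differences of -6.76 ± 0.40 and -6.68 ± 0.41 (limma, adjusted p = 1.9e-06 for both).

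The named genes with both were chosen by rank of signal in the same lists, so their calls and p-values are not separate support. Over all regions tested, 16.2% had more H3K27me3 and 23.3% more HA. Of the 13 named genes with both mark and tag that could be tested, 8 had more HA, 1 had more H3K27me3 and 4 were not called. The 1 was Six3, with a log2 difference of 2.09 ± 0.44 (limma, adjusted p = 0.0039). Olig3, which had only the mark at its start site but HA elsewhere in a merged region of 74.4 kb, had 1.94 ± 0.38 (adjusted p = 0.0027). Sfi1 had -4.84 ± 0.45 (adjusted p = 2.6e-05), AW822073 -4.0005 ± 0.40 (adjusted p = 4.0e-05), Trpm8 -2.87 ± 0.39 (adjusted p = 0.00029), Sp7 -2.60 ± 0.35 (adjusted p = 0.00026), Krt78 -2.54 ± 0.39 (adjusted p = 0.00065) and Sox10 -2.30 ± 0.41 (adjusted p = 0.0016). Apol11b (-1.29 ± 0.39, adjusted p = 0.022) and Olfr285 (-1.07 ± 0.35, adjusted p = 0.030) also had more HA. Wnt11 (-0.51 ± 0.35, adjusted p = 0.27) and Sytl3 (-0.44 ± 0.37, adjusted p = 0.36), with Grin2c and Slc17a7, did not pass the test. These directions, too, are relative to the median region, and they need not follow the levels at the start site. At Apol11b the relative coverage was higher for the mark (2.76 and 2.19) than for the tag (1.48 and 1.77). At Sfi1, AW822073, Trpm8 and Sp7 it was higher for the tag in both libraries, and at Krt78, Sox10 and Olfr285 the libraries differed.

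Other genotypes were compared to ask whether the overlap was that of any tagged H3. The study compared HA signal between mutants and H3WT, at regions that it displayed and at differential H3K27me3 peaks. It reported no enrichment of the mutants at the former and few large differences for H3R2C at the latter. That comparison used signal at chosen regions, whereas the one here used the presence of HA peaks at all H3K27me3 regions of a genotype. Each HA library was set against the H3K27me3 regions of its own genotype. In H3R2C cells, 22.8 and 27.5% of the regions had an HA peak. In H3WT cells the shares were 15.3 and 16.5%, in H3R8C cells 13.7 and 11.2% and in H3R26C cells 8.82 and 8.95%. The H3R2C libraries lay above all 6 others, by 12.8 percentage points in the mean (exact permutation test, two-sided, 28 arrangements, p = 0.036, the smallest this design can give). After adjustment over the 2 comparisons made (Benjamini-Hochberg) the exact permutation p was 0.071 and did not pass 0.05. The test shuffles libraries freely, although those of a genotype share their H3K27me3 regions. H3R2C is a single genotype, so these p-values measure the spread between libraries and not between genotypes. From the other side, 9.64 and 11.98% of H3R2C HA peaks lay at H3K27me3 regions, against 3.36 to 11.998% in the others, a difference of 4.38 percentage points that the exact permutation test did not separate (p = 0.14, adjusted p = 0.14). The HA lists differed in shape between genotypes, with 15344 peaks and a median width of 10.7 kb in H3WT replicates 1 and 2. With equal numbers of top peaks the first difference fell to 4.48 percentage points (exact permutation p = 0.32), and with at least 50% of a region required it was -1.11 (p = 0.71).

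Divided by the share at moved regions, the ratio was 1.45 and 1.5005 in H3R2C cells, 1.02 and 1.11 in H3WT, 1.01 and 1.02 in H3R8C and 0.74 and 0.77 in H3R26C. The difference of means was 0.53 (exact permutation p = 0.036, two-sided, the smallest possible). H3R2C HA libraries also exceeded moved regions 1.27-fold to 1.5005-fold at the H3K27me3 regions of each of the other genotypes and their own. HA libraries of the other genotypes exceeded them 1.08-fold to 1.26-fold at the H3R2C regions. Set against the H3R2C regions alone, the H3R2C libraries were 8.05 percentage points above the others (exact permutation p = 0.036, a comparison added after the data were seen). The H3K27me3 regions themselves differ between genotypes, and libraries of a genotype share them, so genotype and library preparation cannot be told apart.

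**Figure D5:**
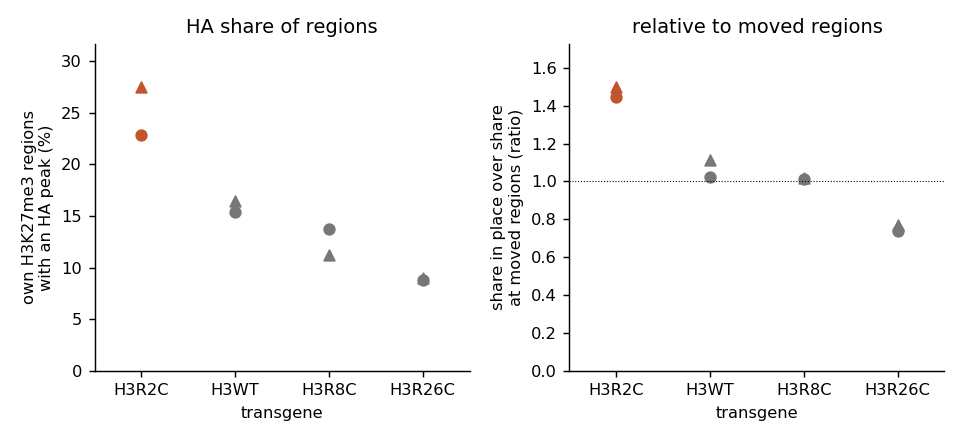
Left, percentage of a genotype's H3K27me3 regions that had an HA peak, for each independent anti-HA library (circles replicates 1 and 2, triangles replicate 3). Right, the same share divided by the mean share at moved regions, with a dotted line at 1. H3R2C (orange) lies at 22.8 and 27.5% and at 1.45 and 1.5005, above the H3WT, H3R8C and H3R26C libraries (grey).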

How the data were processed

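The values used were peak lists from CUT&RUN in C3H 10T1/2 cells, not reads. According to its methods section, single-end reads were aligned by the authors with Rsubread and peaks called with SEACR 1.3 (stringent, norm 0.01) on mm10, separately for each labelled sample. The deposited columns hold total signal, which is coverage summed over a peak, and maximum signal, neither scaled for depth. The study states read totals for every labelled library, with more for anti-HA replicate 3 than for replicates 1 and 2. They were not used here, since the lists shared by replicates 1 and 2 cannot be tied to either total, and precision was judged from how far the independent lists of a group differed. SEACR keeps a top share of blocks, so a missing peak is not an absence of the protein. The sources do not say which of replicates 1 and 2 the identical lists came from. The name of one H3R17C list gives another mark than its label, so H3R17C served only as an alternative. Peaks off the assembled chromosomes were dropped from every list. They were counted only in the anti-HA list of H3R2C replicates 1 and 2, where there was 1.

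Groups came from the sample titles. The members, gene lists and tests were chosen with earlier results of these data known. Regions, overlaps and moves (1, 2 and 5 Mb either way along a chromosome, wrapped at its ends) were computed with pandas 2.3.3, start sites came from the GENCODE basic annotation of GRCm38, and limma 3.58.1 in R 4.3.3 gave the region test with a trend and a pseudocount of 0.25, checked on simulated data. Libraries of genotypes were compared by exact permutation of library values. The study calls the replicates independent biologic ones, but identical lists stand for replicates 1 and 2, so p-values measure the spread between the libraries left. The genes named were the 10 lineage genes of the study, the 6 best-ranked genes of each class by their worst rank among the libraries that define it (1 per merged region, unnamed gene models left out), the best-ranked member of each class in each gene list, the 3 regions with the lowest p in each direction and the 3 longest H3K27me3 regions with and without HA. Lhx1, Nkx2-5, Pax9, Wnt7b, Dhh, Shh, Ihh, Wnt5a, Hoxb6, Hoxc4, Hoxc6, Daxx, Col1a1 and Sparc were named after their values were seen. Alternatives covered the peak threshold, numbers of peaks, labelled replicates, calls in 1 list, overlap, windows, merging, chromosomes, pseudocount, scaling, filters, a replicate block and leaving out each library. RefSeq gave promoters for 16531 of the 21851 coding genes.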

Additional observations from a re-analysis of the deposited data

Results flagged for a closer look

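The share of H3K27me3 regions with an HA peak differed between H3R2C cells and the other genotypes by 12.8 percentage points (22.8 and 27.5% against 8.82 to 16.5%, exact permutation p = 0.036, 0.071 after adjustment over the 2 comparisons). It was 4.48 with equal numbers of top peaks (exact permutation p = 0.32) and -1.11 with at least 50% of a region required (exact permutation p = 0.71). As a ratio to the share at moved regions, the difference of means was 0.53 (1.45 and 1.5005 against 0.74 to 1.11, higher in 2 of 2 H3R2C libraries than in each of the 6 others).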

How the results depend on the processing

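Of 153 alternative values, 90 moved by less than the spread between libraries, by at most 1.5 times for a count, or across no threshold for a test. That spread came from 2 libraries and was wide. For H3K27me3 bases under HA it was 3.95 percentage points, beside a value of 3.802%. The count of 90 is therefore a weak measure of stability. The values that moved further are given here, leave-out values as ranges. The cause was not tested for any of them. The order is H3K27me3 regions with HA, HA regions with H3K27me3 and H3K27me3 bases under HA (9.26, 12.7 and 3.802%), start site shares of H3K27me3 regions with and without HA (37.3 and 19.7%), and coding genes with both, only H3K27me3 and only HA (159, 1126 and 1653). With the upper 50% of peaks, HA regions with the mark came to 10.8%, start site shares to 45.3 and 26.6%, and genes with both and only HA to 75 and 917. With equal numbers of top peaks, 4.90% of H3K27me3 regions and 2.32% of bases had HA, and genes with both and only HA came to 84 and 829. With all 3 labelled replicates and a call in 2, the values were 18.1% of regions, start site shares of 29.2 and 15.9%, and 334 and 2587 genes. With a call in 1 list, they were 28.2% of regions, 10.97% of bases, start site shares of 26.1 and 15.2%, and 736, 1786 and 5372 genes. Merging within 1 kb gave a start site share with HA of 39.96% and 5.92% of bases. Requiring 50% of a region gave 2.98%, and requiring 50% of the start site window 24 and 315 genes with both and only HA. A window of 2.5 kb gave 43.8 and 26.4% and 374 genes with both. Leaving out 1 library in turn gave 6.68 to 27.5% of H3K27me3 regions, 9.64 to 14.5% of HA regions, 3.403 to 9.64% of bases, start site shares of 25.4 to 33.5% and 12.8 to 20.97%, 166 to 443 genes with both and 1660 to 4438 with only HA.

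For limma, regions with more H3K27me3 and with more HA (312 and 450) came to 1671 and 40 with scaling by total signal, 86 and 133 with maximum signal, 9380 and 12039 where regions called for 1 antibody were added with absent signal as 0, and 285 with more HA in the upper 75% of regions. Leaving out 1 library in turn gave 46 to 523 and 129 to 699. With the replicate number as a block (replicate block) they were 307 and 498. Same-numbered libraries did not deviate together (correlation 0.027 over 1929 regions), and the identical lists cannot be tied to replicate 1 or 2. The libraries were therefore not taken as paired, and whether they shared an origin is not known. Against other genotypes, the difference in the share of H3K27me3 regions with HA (12.8 percentage points) was 4.48 (exact permutation p = 0.32) with equal numbers of top peaks, -1.11 (p = 0.71) with 50% of a region required, and 10.4 to 15.1 with 1 library left out, where without either H3R2C library the smallest exact p is 0.14. The difference from the side of HA peaks (4.38) was 0.63 as a ratio to moved regions and 5.12 with 50% required (exact permutation p = 0.036 for both), and 3.21 to 5.55 with 1 library left out, reaching 5.49 (exact permutation p = 0.048) without H3WT replicates 1 and 2. Chromosome 15 was left out, and all HA libraries set against the H3R2C regions, as alternatives chosen after seeing the data, and neither changed a call, although the second moved the differences to 8.05 and 1.69 percentage points. The files give no depth. What can be said is limited most for HA, whose 2 lists shared 15.7% of their merged regions.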
